A study of Mus musculus with 8 samples.

Results

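Immediate early genes are transcribed within minutes of neuronal firing, from transcription factors that are already in place, and 10 of them were followed here across the left hippocampi of trained and naive Cav3.2 knockout and wild-type mice. They were Fos, Fosb, Jun, Junb, Egr1, Egr2, Arc, Btg2, Nr4a1 and Ier2. A gene was included through every probe of the Mouse Whole Genome OneArray that carried its symbol and had a value on all 8 arrays. The array annotated 11 probes to the 10 genes, and 7 probes of 7 genes had values, of 16588 measured probes and 11147 named genes in all. Egr2, Nr4a1, Ier2 and a further Fos probe were blank on every array, so Fos, Fosb, Jun, Junb, Egr1, Arc and Btg2 are described by 1 probe each.

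The mice were males of 6 to 8 weeks on the C57BL/6 background, and the RNA of each sample was pooled from 3 left hippocampi. KTL was the trained homozygous Cav3.2 knockout (Cacna1h, the pore-forming subunit of a T-type calcium channel), which had gone through trace fear conditioning (TFC) and was killed after the contextual retrieval test on the day after training. KNL was the naive (untrained) knockout, WTL the wild type trained and killed in the same way as KTL, and WNL the naive wild type. The knockout carries the deletion in every tissue, and the trained mice had entered the chamber again just before death. Whether the naive mice had been in it as well is not clear from the sources used here. Each group was measured on 2 arrays, and the sources used here do not make clear whether these were separate pools of mice, so the p-values measure only the spread between these arrays, which may be technical.

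When a neuron fires, calcium enters through channels and receptors and starts kinase cascades that phosphorylate CREB and the partners of the serum response factor, which bind the CRE and the CArG box in front of these genes. Fos and Fosb pair with Jun or Junb to form the transcription factor AP-1, Egr1 is a zinc finger transcription factor, Btg2 recruits the machinery that shortens poly(A) tails, and Arc acts at the synapse, where it drives the removal of AMPA receptors. In the hippocampus these transcripts are widely used as marks of recent activity, and most of them decay quickly once transcription stops.

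The 2 KNL arrays stood apart from the other 6. Across all measured probes the log2 intensities of replicate arrays correlated at 0.979 to 0.993, those of different groups without KNL at 0.968 to 0.985, and those of a KNL array and an array of another group at 0.852 to 0.938. The KNL arrays were nearest to WTL replicate 2, at 0.916 to 0.938. These are correlations across probes, which are not independent replicates. Every comparison with KNL rests on these arrays, and the comparisons without them are given beside it. The probe of Cacna1h, whose position against the deletion is not given in the sources used here, read 1171 and 1395 in KTL, 1929 and 1377 in KNL, 2836 and 1838 in WTL and 2732 and 2985 in WNL. The knockout groups had the lower means but were far from background, and KNL replicate 1 lay above WTL replicate 2, with log2 changes of -0.81 in KNL vs WNL (SE 0.25, adjusted p = 0.0303) and -0.84 in KTL vs WTL (SE 0.25, adjusted p = 0.19), so this probe checks the genotype labels only weakly. Of the neuronal markers, Slc17a7, the vesicular glutamate transporter of excitatory neurons, was at 6795 and 6638 in KTL, 5851 and 6314 in KNL, 6380 and 6427 in WTL and 6715 and 6031 in WNL, far above the floor on all 8 arrays. Not all 6 neuronal markers were as even, and 2 were called lower in KNL vs WNL. Neurod6 read 401 and 206 in KNL, against 2398 and 2859 in WNL. Prox1 read 117 and 100 in KNL, against 386 and 373 in WNL.

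The promoters of Fos, Btg2, Jun and Junb are shown because the first pair read lower in KNL than in WNL and the second pair did not. They are RefSeq sequences of build GRCm38.p6, from 250 bases before the annotated gene start to 30 bases after it, written 5′ to 3′ along the gene, and the capitals mark matches to the motifs searched.
Fos, chr12:85473640-85473919, plus strand: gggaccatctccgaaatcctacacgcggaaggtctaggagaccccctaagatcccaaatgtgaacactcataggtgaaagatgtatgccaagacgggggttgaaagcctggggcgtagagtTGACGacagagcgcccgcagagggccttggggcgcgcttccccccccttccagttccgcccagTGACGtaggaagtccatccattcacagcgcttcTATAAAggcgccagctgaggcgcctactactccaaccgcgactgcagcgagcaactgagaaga
Btg2, chr1:134079126-134079405, minus strand: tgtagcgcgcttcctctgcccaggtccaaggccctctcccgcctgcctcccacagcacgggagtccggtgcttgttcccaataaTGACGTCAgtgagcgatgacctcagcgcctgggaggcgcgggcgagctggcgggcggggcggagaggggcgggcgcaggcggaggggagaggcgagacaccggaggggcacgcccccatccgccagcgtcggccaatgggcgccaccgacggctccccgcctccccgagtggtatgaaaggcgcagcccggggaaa
Jun, chr4:95052193-95052472, minus strand: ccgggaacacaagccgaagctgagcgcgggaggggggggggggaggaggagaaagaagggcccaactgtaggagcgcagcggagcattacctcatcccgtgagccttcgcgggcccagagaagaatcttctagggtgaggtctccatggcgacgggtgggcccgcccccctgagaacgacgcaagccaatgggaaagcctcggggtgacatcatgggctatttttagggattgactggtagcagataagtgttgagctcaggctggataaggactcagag
Junb, chr8:84978719-84978998, minus strand: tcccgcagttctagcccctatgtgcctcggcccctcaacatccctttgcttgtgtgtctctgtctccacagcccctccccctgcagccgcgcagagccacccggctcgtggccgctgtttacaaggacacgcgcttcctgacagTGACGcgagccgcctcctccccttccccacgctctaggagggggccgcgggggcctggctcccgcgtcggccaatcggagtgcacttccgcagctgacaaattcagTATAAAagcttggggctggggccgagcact
Counting the gene start as base 1, Btg2 held a full CRE (TGACGTCA) at bases -166 to -159, and the short CRE site TGACG lies inside it on both strands. Fos held TGACG at bases -129 to -125 and -66 to -62 and a TATA box (TATAAA) at -33 to -28. Junb held TGACG at bases -106 to -102 and TATAAA at bases 1 to 6, and Jun held no exact match to any of the 6 motifs. The Jun sequence does hold tgacatca, which differs from the full CRE in 1 letter and was not counted. Fosb, on chromosome 7, had TGACG at bases -60 to -56 and an EGR site at -50 to -42. Searched on both strands of windows of 300 bases, which run to 50 bases after the start, TGACG was present in 4 of 5 of these genes with a window and in 23.0% of all 27025 genes of the RefSeq table, and TGACGTCA in 1 of 5 and in 2.03%. A match is a string of letters in a window and was not tested as a binding site.

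**Figure D1:**
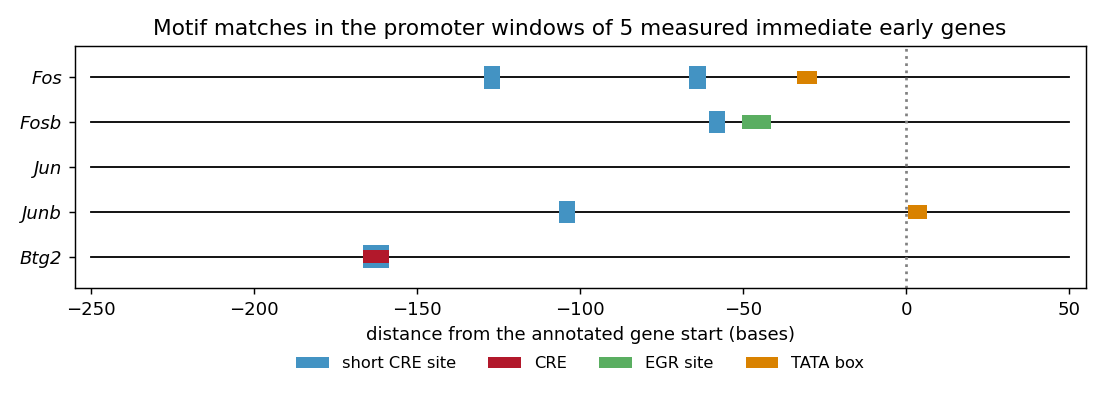
Motif matches in the promoter windows of Fos, Fosb, Jun, Junb and Btg2, by distance from the annotated gene start in bases (dotted line). Blue marks the short CRE site TGACG, red the full CRE of Btg2, green the EGR site of Fosb and orange TATAAA. Only exact matches are drawn, and the line of Jun is empty.

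Fos, the AP-1 subunit most used as a mark of neuronal activity, was brightest in naive wild-type hippocampi. Its intensity, after the floor of 100 and quantile normalization that apply to all values here, was 528 and 551 in KTL, 492 and 383 in KNL, 542 and 445 in WTL and 1024 and 1105 in WNL. Both WNL arrays were above all 6 others, and the arrays of the other 3 groups lay close together. In KNL vs WNL Fos was 2.45-fold lower (log2 change -1.29, SE 0.16, adjusted p = 0.00123 by limma with Benjamini-Hochberg adjustment over all probes). The difference of KTL from KNL was 0.31 (95% interval -0.07 to 0.70, adjusted p = 0.134).

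**Figure D2:**
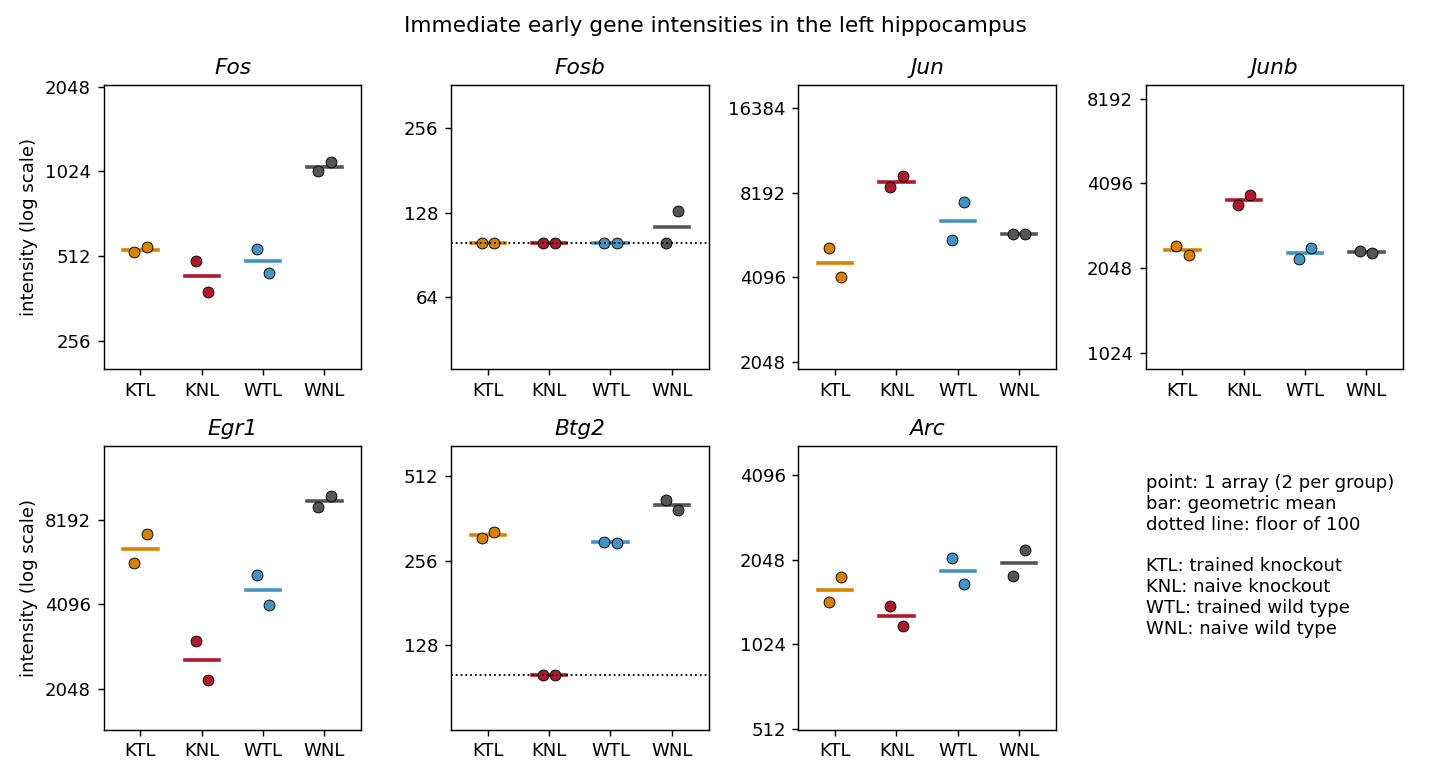
Intensity (log scale) of the 7 measured immediate early gene probes on each array. Points are arrays, bars are geometric means of the 2 arrays of a group, and the dotted line is the floor of 100. Fos, Egr1 and Btg2 are highest in WNL and lowest in KNL, while Jun and Junb are highest in KNL.

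Egr1, which is also called Zif268 and is needed for the late phase of hippocampal long-term potentiation, spanned the 4 groups most widely among the probes that stayed clear of the floor. It read 5720 and 7287 in KTL, 3033 and 2209 in KNL, 5202 and 4077 in WTL and 9101 and 9945 in WNL. No array of one group overlapped with an array of another. In KNL it was 3.68-fold lower than in WNL (log2 change -1.88, SE 0.21, adjusted p = 0.00089), and in KTL 2.49-fold higher than in KNL (1.32, SE 0.21, adjusted p = 0.00317).

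Btg2 was the gene that left the measurable range in the naive knockout. Its intensity was 308 and 323 in KTL, 100.39 and 100 in KNL, 298 and 296 in WTL and 421 and 388 in WNL. The KNL arrays thus lay at the floor or within 1 unit of it (deposited values 100.35 and 80.6), and folds against them are lower bounds. The floor also narrows the spread between the KNL arrays, which enters the SE and p of Btg2. Btg2 was at least 4.03-fold lower in KNL than in WNL (log2 change -2.01, SE 0.10, adjusted p = 0.00012) and at least 3.15-fold higher in KTL than in KNL (1.66, SE 0.10, adjusted p = 0.000206). With a floor of 200 in place of 100 the KNL vs WNL change was -1.02 and still called, since the floor sets how far Btg2 can fall.

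Jun and Junb, the partners of Fos in AP-1, had their highest values in KNL, the group in which the mean of Fos was lowest. Jun read 5200 and 4086 in KTL, 8546 and 9350 in KNL, 5572 and 7554 in WTL and 5826 and 5820 in WNL. Junb, which as a partner is a weaker activator than Jun, read 2450 and 2286 in KTL, 3440 and 3724 in KNL, 2210 and 2412 in WTL and 2348 and 2320 in WNL. For both genes the 2 KNL arrays were above all 6 others. Junb was 1.53-fold higher in KNL than in WNL (log2 change 0.62, SE 0.11, adjusted p = 0.00366), which passed the p threshold and not the 2-fold one. Jun was higher by the same 0.62 with a wider spread (SE 0.18, adjusted p = 0.0263), which did not pass. In KTL vs KNL Jun differed by -0.96 (SE 0.18, adjusted p = 0.00591), a 1.94-fold difference that passed the p threshold and missed the 2-fold one, and Junb by -0.60 (SE 0.11, adjusted p = 0.00449).

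Arc and Fosb were called in none of the comparisons. Arc, an effector of synaptic plasticity, read 1447 and 1771 in KTL, 1401 and 1192 in KNL, 2069 and 1678 in WTL and 1795 and 2221 in WNL. The KNL arrays were the 2 lowest, and both KTL arrays lay under both WNL arrays. The KNL vs WNL change of Arc was -0.63 (SE 0.18, adjusted p = 0.0245) and did not pass. Fosb, whose splice form ΔFosB accumulates with repeated activity, was at the floor on 7 of 8 arrays and read 129.9 on WNL replicate 2, so that no fold is given for it. Its deposited values, below the floor, were 48.8 and 70.1 in KTL, 51.5 and 62.1 in KNL, 42.6 and 66.5 in WTL and 89.2 and 129.9 in WNL.

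Ranked by geometric mean, Fos, Egr1 and Btg2 had the same order of groups, with KNL lowest, then WTL, then KTL, and WNL highest. The means of Fos were 434 in KNL, 491 in WTL, 539 in KTL and 1064 in WNL. Those of Egr1 were 2588 in KNL, 4605 in WTL, 6456 in KTL and 9514 in WNL, and those of Btg2 were 100.19 in KNL, 297 in WTL, 316 in KTL and 404 in WNL. Among neighbours in this order 1 pair differed beyond the thresholds, namely Btg2 in KNL vs WTL (log2 change -1.57, SE 0.10, adjusted p = 0.000277). Egr1 in KNL vs WTL reached an adjusted p of 0.0208, and for Fos no pair among KTL, KNL and WTL passed the p threshold. Junb had means of 2367 in KTL, 3579 in KNL, 2309 in WTL and 2334 in WNL, so that KNL stood alone, and the step to its neighbour KTL passed the p threshold. Jun was highest in KNL (8939), then WTL (6488), WNL (5823) and KTL (4609), and Arc was lowest in KNL (1292), then KTL (1601), WTL (1863) and WNL (1996). No neighbours of Arc or Jun passed the p threshold, with Jun in KNL vs WTL at a log2 change of 0.46 (95% interval 0.02 to 0.90, adjusted p = 0.0798).

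To see how loss of Cav3.2 bears on these genes without training, KNL was compared with WNL. Of the 7 probes, 3 were called lower (Fos, Egr1 and Btg2), 0 higher and 4 neither way, where a probe was called if its adjusted p was below 0.01 and its change exceeded 2-fold. Of all 16588 probes 13.5% were called lower and 6.93% higher. The adjusted p alone was under 0.01 for 4 of the 7 probes, against 37.8% of all probes, and the arrays of the groups did not overlap for 6 of 7, against 82.8%. The median change was -0.63 over the 7 probes and 0.16 over all probes. When all probes were split into 10 equal classes of mean intensity, 10.2% were called lower in the class of Egr1, 17.1% in that of Fos and 17.9% in that of Btg2. The count of 3 of 7 is small, and the list as such was not tested. SAM, the study's test, called the same 3 genes. Without KNL replicate 2 only Btg2 was called, with Fos at an adjusted p of 0.0105 and Egr1 at 0.0104, and without WNL replicate 2 Fos missed the threshold at 0.0117.

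**Figure D3:**
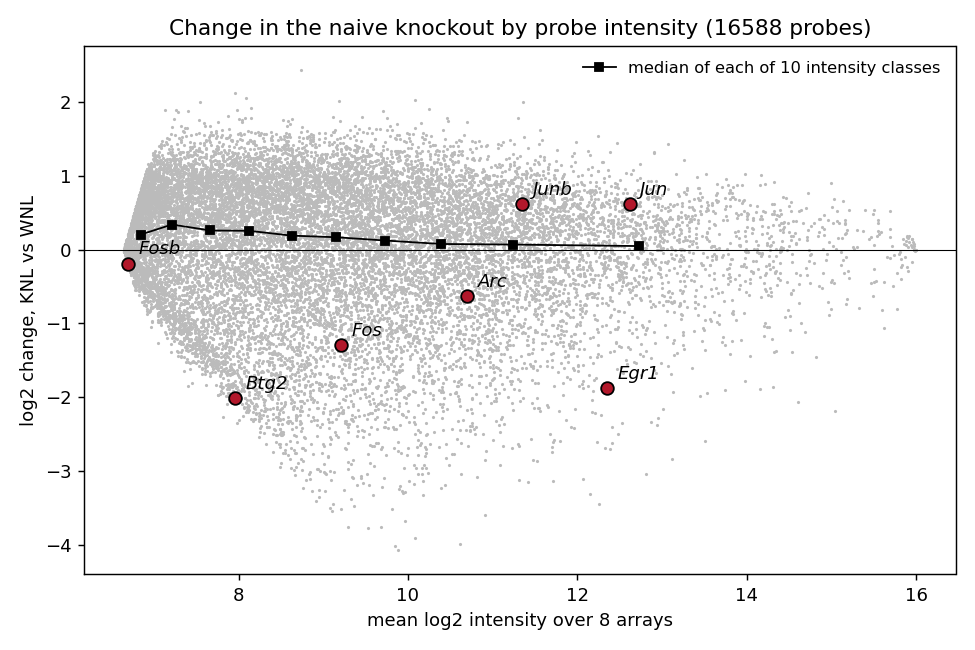
log2 change of every measured probe in KNL vs WNL against its mean log2 intensity over 8 arrays (gray), with the 7 immediate early gene probes in red and the median of each of 10 intensity classes as black squares. The medians lie between 0.05 and 0.34, Egr1 at -1.88 lies under them among bright probes, and the slanted lower left edge, on which Btg2 sits, is set by the floor.

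Markers of other cells also moved in the KNL arrays, unevenly within each list. Of all 11147 named genes 13.6% were called lower and 6.23% higher in KNL vs WNL, and a count of 1 in lists this short lies near these shares. The summed intensity of 6 choroid plexus markers was 17381 and 13411 in KNL, against 54546 and 53353 in WNL, and the sum is dominated by Ttr, the carrier protein transthyretin, which was called lower (log2 change -2.07) at 13737 and 10093 in KNL, against 49816 and 49065 in WNL. The other 5 choroid plexus markers were not called, with changes from -0.77 to -0.30. The sum was low in the trained knockout as well, at 19347 and 20204.8 in KTL, against 42180.5 and 39779.7 in WTL. In KTL vs WTL all 6 markers were nominally lower (median change -1.24) and 1 was called, against 0.0179% of all named genes called lower. The sum of 5 astrocyte markers was 32271 and 28290 in KNL, against 42167 and 41409 in WNL, and 1 of 5 (Gfap) was called lower. That of 5 oligodendrocyte markers was 37244 and 34373 in KNL, against 54261 and 50244 in WNL, with 0 of 5 called by limma. There the difference lay in Mbp (-0.89), while the other 4 had changes from 0.01 to 0.50, and the 2 markers at an unadjusted p under 0.05 (Mbp and Cnp) had opposite signs. The sum of 6 microglial markers was 6691 and 6526 in KNL, against 7870 and 7161 in WNL (1 called lower), and that of 4 endothelial markers 4277 and 4309 in KNL, against 2989 and 3510 in WNL (1 called lower and 1 higher). Of 6 neuronal markers, Neurod6 and Prox1 were called lower (-3.19 and -1.81) and the other 4 neither way, among them Snap25, which read 60758 or more on every array, near the top of the scale. The marker genes named here were singled out after their values were seen. In KTL vs KNL 3 of 6 choroid plexus markers were called lower and 0 higher, with Ttr at 0.61, against 7.11% of all named genes called lower and 12.9% higher. The part of these shifts in the values of Fos, Egr1 and Btg2 was not tested, and fewer cells of a type and less RNA per cell cannot be told apart in such samples.

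The effect of training in the knockout was read from KTL vs KNL. Egr1 and Btg2 rose, 5 of 7 probes were called neither way, and 0 were called lower, against 12.6% of all probes called higher and 7.5% lower. At an adjusted p under 0.01 without the fold threshold Jun and Junb were lower as well, which makes 4 of 7 probes against 35.6%. Fos (0.31) and Arc (0.31, adjusted p = 0.184) did not pass. The median change was 0.31 over the 7 probes and -0.09 over all probes. Egr1 was no longer called without KNL replicate 2, KTL replicate 1 or KTL replicate 2, with adjusted p of 0.0269, 0.0143 and 0.0296, nor when only the 4 arrays compared entered the fit, while Btg2 was called in each of these. With a floor of 200 neither gene was called.

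In the wild type, WTL vs WNL, 0 of 7 probes passed the thresholds in limma and 0 in SAM, and 3 (Fos, Egr1 and Btg2) had an unadjusted p under 0.05. Of all probes limma called 0% and SAM 6 probes, and 15.1% had an unadjusted p under 0.05. The 3 genes were nevertheless lower on both WTL arrays than on both WNL arrays. Fos differed by -1.12 (95% interval -1.50 to -0.73, adjusted p = 0.15), Egr1 by -1.05 (-1.56 to -0.54, adjusted p = 0.184) and Btg2 by -0.44 (-0.68 to -0.21, adjusted p = 0.201). Groups did not overlap for these 3 of 7 probes, against 41% of all probes. Jun, Junb and Arc differed by 0.16, -0.02 and -0.10, with adjusted p from 0.719 to 0.972, and the sign of each turned when 1 array was left out. The naive wild type therefore had the highest Fos, Egr1 and Btg2 of the 4 groups, above the mice killed after retrieval, although in limma its distance from WTL did not survive adjustment.

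The difference between the training effects of the 2 genotypes, (KTL vs KNL) minus (WTL vs WNL), was tested as an interaction. It was called higher for Fos, Egr1 and Btg2, 3 of 7 probes, against 13.3% of all probes called higher and 8.46% lower. The values were 1.43 for Fos (SE 0.23, adjusted p = 0.00444), 2.37 for Egr1 (SE 0.30, adjusted p = 0.0023) and 2.10 for Btg2 (SE 0.14, adjusted p = 0.000722). That of Btg2 is a lower bound, because the floor sets its KNL values, and its SE is subject to the same limit. For Egr1 the trained knockout was higher than its naive control and the trained wild type lower than its own, while for Fos the larger share of the difference was the low value of WTL against WNL. Jun (-1.11, SE 0.26, adjusted p = 0.0139), Junb (-0.58, SE 0.15, adjusted p = 0.0191) and Arc (0.41, adjusted p = 0.216) were not called. Leaving out KNL replicate 2, KTL replicate 1, KTL replicate 2 or WNL replicate 2 left Btg2 as the 1 called gene. Fos also lost its call without WNL replicate 1, without WTL replicate 2 and with a floor of 200, in 8 of 20 alternatives in all. The naive arrays of each genotype enter both this value and the comparisons above, so these are not separate pieces of evidence.

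**Figure D4:**
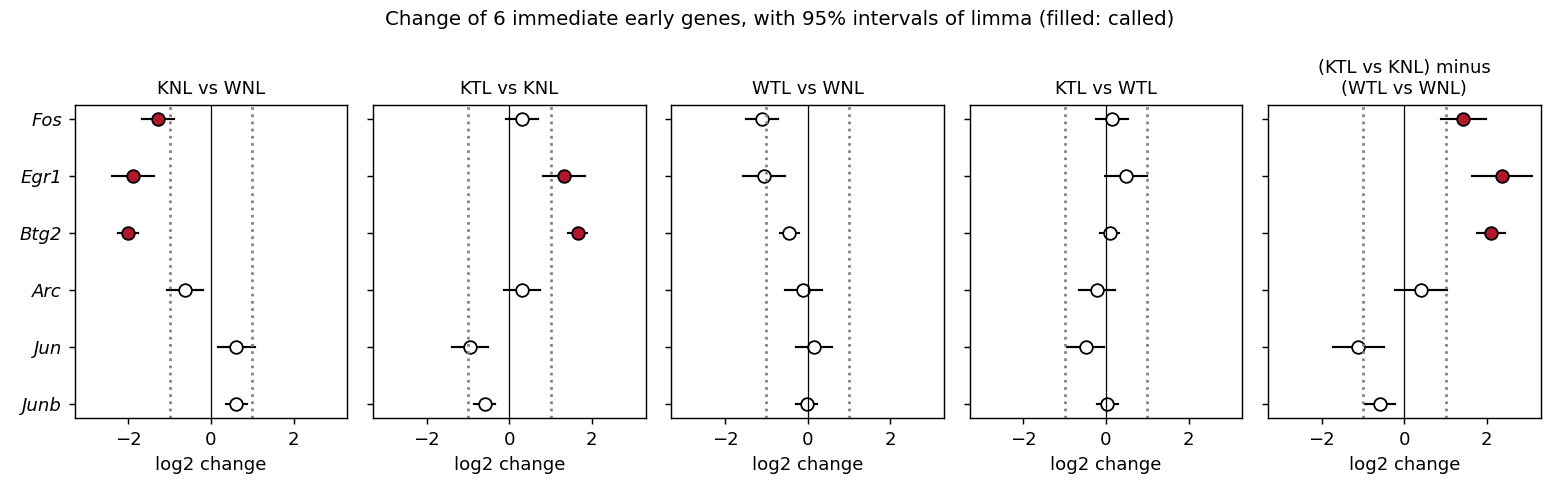
log2 change of 6 immediate early genes, the measured ones without Fosb, in 5 comparisons. Values of Btg2 that involve KNL are bounds set by the floor. Circles are limma estimates, filled where called, lines are 95% intervals and the dotted lines mark a 2-fold change. Filled circles are Fos, Egr1 and Btg2 in KNL vs WNL and in the interaction, and Egr1 and Btg2 in KTL vs KNL.

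After training the genotypes lay closer together than in the naive mice for each of the 7 probes. Both KTL arrays still lay below both WTL arrays for Jun, and above them for Egr1 and Btg2. In KTL vs WTL 0 of 7 probes were called by limma and 0 by SAM, against 0.0241% of all probes in limma and 13 probes in SAM, and 1 of 7 (Jun) had an unadjusted p under 0.05, against 17.5%. Jun differed by -0.49 (95% interval -0.94 to -0.05, adjusted p = 0.255) and Egr1 by 0.49 (-0.02 to 0.996, adjusted p = 0.301). The differences of Fos, Btg2, Junb and Arc were 0.14, 0.09, 0.04 and -0.22, and those of Fos and Junb turned sign when 1 array was left out. The intervals of these 4 genes stayed within -0.66 and 0.52, while those of Jun and Egr1 reached -0.94 and 0.996, just short of 2-fold. These intervals measure only the spread between these arrays, so they do not exclude a 2-fold difference between mice. Against naive wild type, KTL vs WNL, 0 of 7 probes were called by limma (0.0422% of all probes) and 0 by SAM (7 probes), with 3 at an unadjusted p under 0.05 (11.5% of all probes). Fos differed by -0.98 (95% interval -1.37 to -0.59, adjusted p = 0.124), Egr1 differed by -0.56 and Btg2 by -0.36. KNL vs WNL, WTL vs WNL and KTL vs WNL share the WNL arrays.

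A wider list of 47 other immediate early genes, of which 38 had a probe, did not move one way in KNL vs WNL. Taking the brightest probe of each gene, 8 were called lower, 5 higher and 25 neither way, against 13.6% of all 11147 named genes called lower and 6.23% higher, and the median change was -0.08 against 0.14 over all genes. The lower genes included phosphatases that end kinase signaling. Dusp1, which dephosphorylates MAP kinases in the nucleus, read 589 and 636 in KTL, 139 and 126 in KNL, 359 and 403 in WTL and 535 and 586 in WNL (KNL vs WNL -2.08, SE 0.12, adjusted p = 0.000145). Dusp6, specific for ERK, read 998 and 1256 in KTL, 430 and 364 in KNL, 512 and 744 in WTL and 1436 and 1452 in WNL (-1.87, SE 0.21, adjusted p = 0.000873). In Dusp6, as in Fos, both WTL arrays lay under both WNL arrays, with a WTL vs WNL change of -1.23 (adjusted p = 0.173).

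Of the other genes that fell in KNL, Homer1, a scaffold of glutamate receptors whose short form is the activity-induced one, read 2750 and 3546 in KTL, 1007 and 680 in KNL, 3934 and 2553 in WTL and 2348 and 3634 in WNL (-1.82, SE 0.32, adjusted p = 0.00412), and whether its probe tells the forms apart is not given in the sources used here. Ptgs2, the inducible cyclooxygenase, was at the floor on both KNL arrays and at 269 and 345 in WNL, at least 3.05-fold lower in KNL (adjusted p = 0.000348). Sgk1, a kinase also induced by glucocorticoids (-1.86, adjusted p = 0.00798), Egr4, a relative of Egr1 (-1.54, adjusted p = 0.00076), and Rasd1, a small G protein (-1.42, adjusted p = 0.00173), were lower as well. Sgk1 has a second, dim probe that differed by -0.04. The KTL means of Dusp1, Sgk1, Homer1, Ptgs2, Egr4 and Rasd1 lay within 0.40 of those of WNL on the log2 scale (adjusted p from 0.515 to 0.959).

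Of the 5 genes called higher in KNL, 3 encode AP-1 subunits, namely Fosl1, Fosl2 and Jund. Fosl2 (1.11, adjusted p = 0.00476) has 2 probes, and only the brighter one is given here. Fosl1, the AP-1 subunit Fra-1, read 354 and 378 in KTL, 788 and 1046 in KNL, 378 and 482 in WTL and 429 and 244 in WNL (KNL vs WNL 1.49, SE 0.29, adjusted p = 0.00552). Jund, the largely constitutive Jun protein, read 887 and 802 in KTL, 1596 and 1934 in KNL, 885 and 1046 in WTL and 836 and 736 in WNL (1.16, SE 0.15, adjusted p = 0.00142). In both genes, as in Jun and Junb, the 2 KNL arrays were the highest. Klf4, a zinc finger factor, read 3074 and 3860 in KNL, against 1411 and 1094 in WNL (1.47, SE 0.20, adjusted p = 0.00158), while its other probes differed by 1.04 and, for a dim one, by -0.31. In KTL vs KNL the list had 8 genes called higher and 5 lower (12.9% and 7.11% of all genes), in the interaction 8 and 5 (13.7% and 8.24%), and in WTL vs WNL 0 by limma with 6 of 38 at an unadjusted p under 0.05 (15.1% of all probes).

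**Figure D5:**
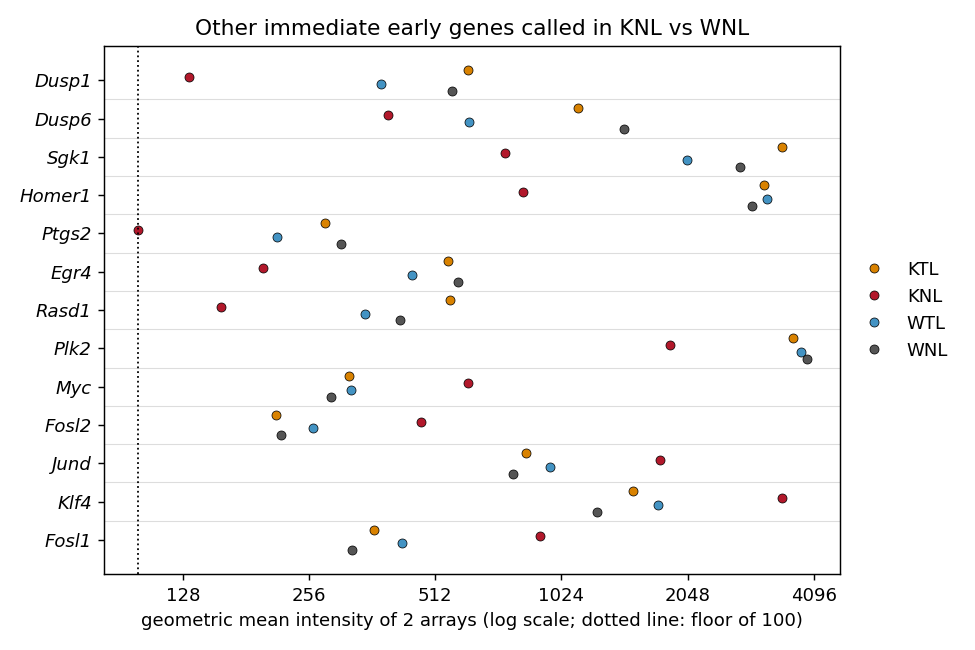
Geometric mean intensity (log scale, 2 arrays per group) of the 13 other immediate early genes called in KNL vs WNL, from the largest decrease at the top to the largest increase at the bottom. The dotted line is the floor of 100. In each row the KNL point stands on one side of the other 3 groups, to the left for 8 genes and to the right for 5. Plk2, Myc and Fosl2 fall outside the naming rule and complete the set.

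Short CRE sites were then counted in the promoters of all these genes. Joining the 7 measured genes with the list, 8 of the 9 genes called lower in KNL that had a RefSeq window held TGACG (11 genes were called lower), against 1 of 3 genes called higher (of 5) and 15 of 23 called neither way (of 29), where 23.0% of all genes hold it. The full CRE occurred in 3 of the 9 lower genes (Btg2, Dusp1 and Plk2, the last named after its match was seen), 0 of 3 higher genes and 2 of 23 others, and in 2.03% of all genes. The CArG box was found in the windows of 0 of the 9 lower genes and in 1.81% of all genes. A CArG box farther upstream was outside the search, and Egr1 had no window. The count therefore does not show that the lower genes lack this box. All these motif counts come from short windows and carry no test.

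Genes that follow the first wave were called about as often as all genes in KNL vs WNL. Of 18 late response genes 14 had a probe, and 2 were called lower, 0 higher and 12 neither way, with a median change of 0.16, against 13.6% of all genes called lower, 6.23% higher and a median of 0.14. Bdnf, the neurotrophin whose activity-driven promoters contain CRE-like elements, read 444 and 383 in KTL, 135 and 117 in KNL, 331 and 367 in WTL and 479 and 439 in WNL (KNL vs WNL -1.86, SE 0.13, adjusted p = 0.000223). Serpini1, the protease inhibitor neuroserpin, read 909 and 914 in KTL, 198 and 137 in KNL, 1652 and 1213 in WTL and 1680 and 1612 in WNL (-3.32, SE 0.21, adjusted p = 0.00017). Both were lowest on the KNL arrays, and in KTL vs KNL both were called higher (1.71 and 2.47). Of 25 upstream factors and kinases 15 had a probe, among them the CREB relatives Crem and Atf1, coactivators of CREB and the MAP kinase Mapk3, but not Creb1 or Srf. In KNL vs WNL 0 of the 15 were called by limma and 6 had an unadjusted p under 0.05, against 66.3% of all probes. Atf2 (0.91), Mapk3 (0.79) and Atf1 (0.55) passed the p threshold and not the 2-fold one (adjusted p from 0.00243 to 0.00911). Their values were seen before they were singled out, and Atf1 was at the floor in KTL, WTL and WNL. In KTL vs KNL 2 of the 15 were called lower and 0 higher, against 7.11% and 12.9% of all named genes. The interaction also had 2 lower and 0 higher, against 8.24% and 13.7%.

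The named genes whose pattern over the 8 arrays lay nearest to that of Fos were not immediate early genes. By Euclidean distance of log2 values centred on each gene, over 8942 genes, they were Cdh8 (distance 0.42), 1200003C05Rik (0.51), Ccnl2 (0.58), Arntl (0.66) and Calml4 (0.68). Cdh8, a cadherin of neurons, had means of 672 in KTL, 520 in KNL, 600 in WTL and 1074 in WNL, so like Fos it was highest in WNL and alike in the other groups. Arntl, the clock transcription factor also called Bmal1, had 786 in KTL, 505 in KNL, 658 in WTL and 1086 in WNL. Among the measured genes of the opening list Egr1 (1.04, rank 267) and Arc (1.07, rank 306) were nearest to Fos, and Btg2 (1.64), Junb (1.97) and Jun (2.13) were farther away. With 8 arrays in 4 groups, such a distance is a description of these arrays.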

How the data were processed

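Left hippocampal RNA was amplified, labeled with Cy5 and hybridized by the authors to the 1-color Mouse Whole Genome OneArray. The deposited intensities are on a linear scale, with 1 value per probe and array; per the study's methods 2 technical replicates were averaged and the intensities normalized. Array medians lay between 481 and 482, the lowest value was 7.23, and of 29922 probes 13334 were blank on all arrays. The software version behind these steps is not given in the sources used here.

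The floor of 100, quantile normalization and log2 were applied here to the other 16588 probes, of which 13183 had 1 gene symbol, 3405 none and 0 several, from the platform annotation in GEO. Between 6.64% and 6.86% of probes were at the floor, and the number of arrays limits the precision. Linear models were fitted in R 4.3.3 by limma 3.58.1 to all 8 arrays, a coefficient for each group (4 residual and 2.45 prior degrees of freedom) and Benjamini-Hochberg adjustment over all probes. The thresholds are those of the study, whose own test, SAM, was an alternative. A floor, a normalization, a brightness filter, the test, the thresholds, the arrays and a replicate block were varied. The script was tested on simulated data.

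The immediate early genes and the lists were chosen with earlier results of these data known. Named are every probe of the 10 genes, Cacna1h, up to 10 other immediate early genes, 6 late response genes and 6 upstream factors with the largest called change in KNL vs WNL, and the 5 genes nearest to Fos with a mean intensity of at least 200. Others are marked as picked after their values were seen. Promoters are RefSeq windows of build GRCm38.p6, from 250 bases before to 50 bases after the start, in which CRE (TGACGTCA), its short form TGACG, the CArG box, the EGR sites GCGGGGGCG and GCGTGGGCG, the AP-1 sites TGAGTCA and TGACTCA and TATAAA were searched on both strands. Windows were used for 5 of the 7 measured genes, and Egr1 and Arc had none. Motif letters were matched exactly.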

Additional observations from a re-analysis of the deposited data

Results flagged for a closer look

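For 3 genes the effect of training differed between the genotypes by a test of the difference itself, the limma interaction (KTL vs KNL) minus (WTL vs WNL). The difference was 2.37 for Egr1 (adjusted p = 0.0023), at least 2.10 for Btg2 (adjusted p = 0.000722) and 1.43 for Fos (adjusted p = 0.00444), all on the log2 scale and with 2 arrays in each group. The floor sets the KNL values of Btg2 and narrows their spread. In each case both KTL arrays lay above both KNL arrays, and both WTL arrays lay below both WNL arrays. Of all 16588 probes 13.3% were called higher in the same test. Each difference includes the KNL arrays, which stood apart across all probes, and the p-values measure only the spread between arrays that may be technical. The dependence of these calls on the processing is given below.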

How the results depend on the processing

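Each group had 2 arrays, the KNL arrays stood apart as a whole, and Btg2 and Fosb reached the floor, so that depth of signal limits their folds and their spread. In KNL vs WNL the 3 called genes became 6 at an adjusted p under 0.05 with no fold threshold, 1 (Btg2) when tested against a 2-fold change and 1 to 3 when single arrays were left out. In KTL vs KNL the 2 called genes became 0 with a floor of 200, 1 with only the brighter probes (a filter that removes Btg2), 1 with only the arrays compared, 4 at an adjusted p under 0.05, 0 when tested against a 2-fold change and 1 to 2 when single arrays were left out. In the interaction the 3 called genes became 5 at an adjusted p under 0.05, 1 when tested against a 2-fold change and 1 to 4 when single arrays were left out. Among its genes Fos lost the call in 8 of 20 alternatives (adjusted p up to 0.375), Egr1 in 5 of 20 and Btg2 in 0 of 19, and Jun gained it in 5 of 20. WTL vs WNL, KTL vs WTL and KTL vs WNL stayed at 0 throughout. Single-gene values turned sign only in comparisons that were not called. These were Fos in KTL vs WTL (-0.00639 to 0.2779 without single arrays), Junb in KTL vs WTL (-0.02742 to 0.09852), WTL vs WNL (-0.07869 to 0.04725) and KTL vs WNL (-0.0303 to 0.06985, and -0.002902 with cyclic loess), Jun in WTL vs WNL (-0.0636 to 0.3754) and Arc in WTL vs WNL (-0.2533 to 0.05389). Of 792 single-gene alternatives 745 kept direction and call, 27 lost the call, 11 gained it and 9 turned sign. The cause of these shifts was not tested. Over all probes the KNL vs WNL count of 3383 became 1400 without KNL replicate 2, 1815 without WNL replicate 2, 1819 with a floor of 200, 2187 with only the arrays compared, 10068 at an adjusted p under 0.05 and 459 when tested against a 2-fold change. Replicate numbers did not pair the samples, since the correlation of replicate deviations between groups ran from -0.25 to 0.43, and with the replicate block the counts were 3081 in KNL vs WNL, 2985 in KTL vs KNL and 2447 in the interaction. With the WTL and KNL numbers crossed, chosen after seeing the data, they were 3681, 3710 and 4503. The interaction was not run with SAM or with only the arrays compared.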
